A study of Rattus norvegicus with 12 samples.

Results

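The genes of DNA replication and deoxynucleotide supply were followed in neonatal rat heart cells after siRNA against Yap, a coactivator of transcription that the Hippo pathway restrains. Members were taken by symbol from a list of 45 genes, of which 44 had a row among the 14636 genes of the deposited table. Chaf1a was not analysed here. All 44 passed the filter of a mean of at least 0.5 FPKM (fragments per kilobase of transcript, scaled to the library), and the lowest had a mean of 3.82 FPKM. The study holds 12 libraries in 4 groups of 3. Cardiomyocytes and cardiac fibroblasts were isolated from hearts of Sprague Dawley rats aged 2 days, separated on a Percoll gradient and grown in medium with 15% serum and antibiotics. After 16 h they received either 2 siRNAs against Yap at 25 nM each or, as control, a universal negative siRNA, whose concentration is not given in the sources used here. Poly-A RNA was taken 48 h later. All groups, controls included, were thus transfected primary cultures, and siRNA lowers its target without deleting the gene. Whether a group's 3 libraries represent separate animals or cultures is not stated in the labels. The p-values therefore rest on spread among libraries that may be technical.

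Replication starts at origins where the origin recognition complex, Cdc6 and Cdt1 load the MCM helicase. Cdc45 and the GINS complex then switch the helicase on, polymerases alpha, delta and epsilon copy the strands with the sliding clamp PCNA, and ribonucleotide reductase and thymidylate synthase supply the deoxynucleotides. Many of these genes are transcribed in late G1 and S phase under E2F factors, and heart muscle cells largely leave the cell cycle soon after birth.

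Yap1 itself had 55.3, 60.8 and 63.1 FPKM with control siRNA and 5.9, 4.43 and 6 FPKM with Yap siRNA in cardiomyocytes (log2 fold change −3.24 ± 0.10, adjusted p = 1.28e-11, with limma's SE after the sign ±). Fibroblasts had 35.4, 37.4 and 33.5 FPKM with control siRNA and 4.45, 3.88 and 4.49 FPKM with Yap siRNA (−2.79 ± 0.10, adjusted p = 5.81e-11). Its groups did not overlap in either cell type. Cardiomyocyte markers summed to 26513 to 30592 FPKM in control cardiomyocytes and to 904 to 952 FPKM in control fibroblasts, while fibroblast markers summed to 346 to 502 FPKM and to 16740 to 17713 FPKM, so both labels stood with their markers. Markers of other cells were present too: endothelial markers summed to 566 to 670 FPKM in control cardiomyocytes and 183 to 209 FPKM in control fibroblasts. Eng held most of the fibroblast sum, with a mean of 174.2 FPKM, where Pecam1 had 1.09 FPKM and Cdh5 1.43 FPKM. Library totals of FPKM lay between 563193.5 and 620119.3, the read depth is unknown, and libraries of a group had Spearman correlations across genes of 0.989 to 0.992. Of all genes called, the share that was higher moved with scaling: 42.3% as deposited, 53.0% by median-of-ratios and 47.8% by quantile normalization for Yap siRNA in cardiomyocytes, 66.1%, 54.8% and 46.3% in fibroblasts, 33.1%, 51.8% and 51.2% for the difference between these effects, and 61.4%, 50.8% and 45.0% for cardiomyocytes against fibroblasts.

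Yap siRNA lowered most replication and nucleotide synthesis genes in both cell types. In cardiomyocytes 36 of 44 members fell and 1, Gins2, rose, at a Benjamini-Hochberg adjusted p under 0.05 in limma. Of all 11302 genes tested, 28.7% were called lower, 21% higher and 49.8% in either direction. The median log2 fold change of the members was −0.61, against −0.06 over all genes, and the median member kept 63.1% of its control FPKM. In fibroblasts 33 members fell and 0 rose in limma, where 10.5% of all genes were called lower, 20.4% higher and 30.9% in either direction. At an unadjusted p under 0.05 there were 35 lower and 1 higher, a threshold at which the shares of all genes were not computed. The median was −0.39, against 0.07 over all genes, and the median member kept 74.8% of control. A total of 29 members fell in both cell types, 7 were called lower in cardiomyocytes alone and 4 in fibroblasts alone, which by itself does not show that the effects differ. How many of all genes fell in both or in 1 cell type alone was not computed. In bulk RNA, fewer cells in S phase and less of these RNAs per cell cannot be told apart.

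**Figure D1:**
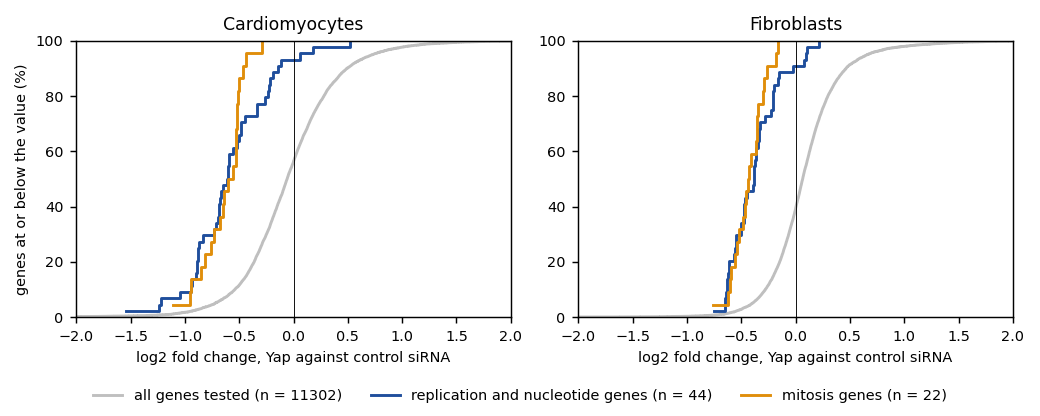
Cumulative share of genes (%) at or below each log2 fold change of FPKM + 1, Yap against control siRNA, in cardiomyocytes (left) and fibroblasts (right). The 44 replication and nucleotide genes (blue) and 22 mitosis genes (orange) lie to the left of all 11302 genes tested (grey); the blue medians are −0.61 and −0.39.

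The members' control levels set this on a common per-length scale. In control cardiomyocytes mean FPKM ran from 5.30 for Pole2, a subunit of polymerase epsilon, to 107 for Rrm2, the regulated subunit of ribonucleotide reductase, with a median of 19.5. In control fibroblasts it ran from 3.41 for Gins3 to 77.8 for Pcna, with a median of 15.0. Summed over the 44 genes, FPKM stood at 1320, 1273 and 1195 in control cardiomyocytes and at 842, 765 and 761 with Yap siRNA. The sum in fibroblasts was 851, 841 and 866 with control siRNA and 627, 639 and 670 with Yap siRNA. Every library with Yap siRNA lay below every control library of its cell type. Gene by gene, the groups did not overlap for 37 members that were lower and 2 that were higher in cardiomyocytes, and for 36 and 1 in fibroblasts. Over all genes the shares not overlapping were 30.5% lower and 22.7% higher in cardiomyocytes, and 17.7% and 31.4% in fibroblasts.

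**Figure D2:**
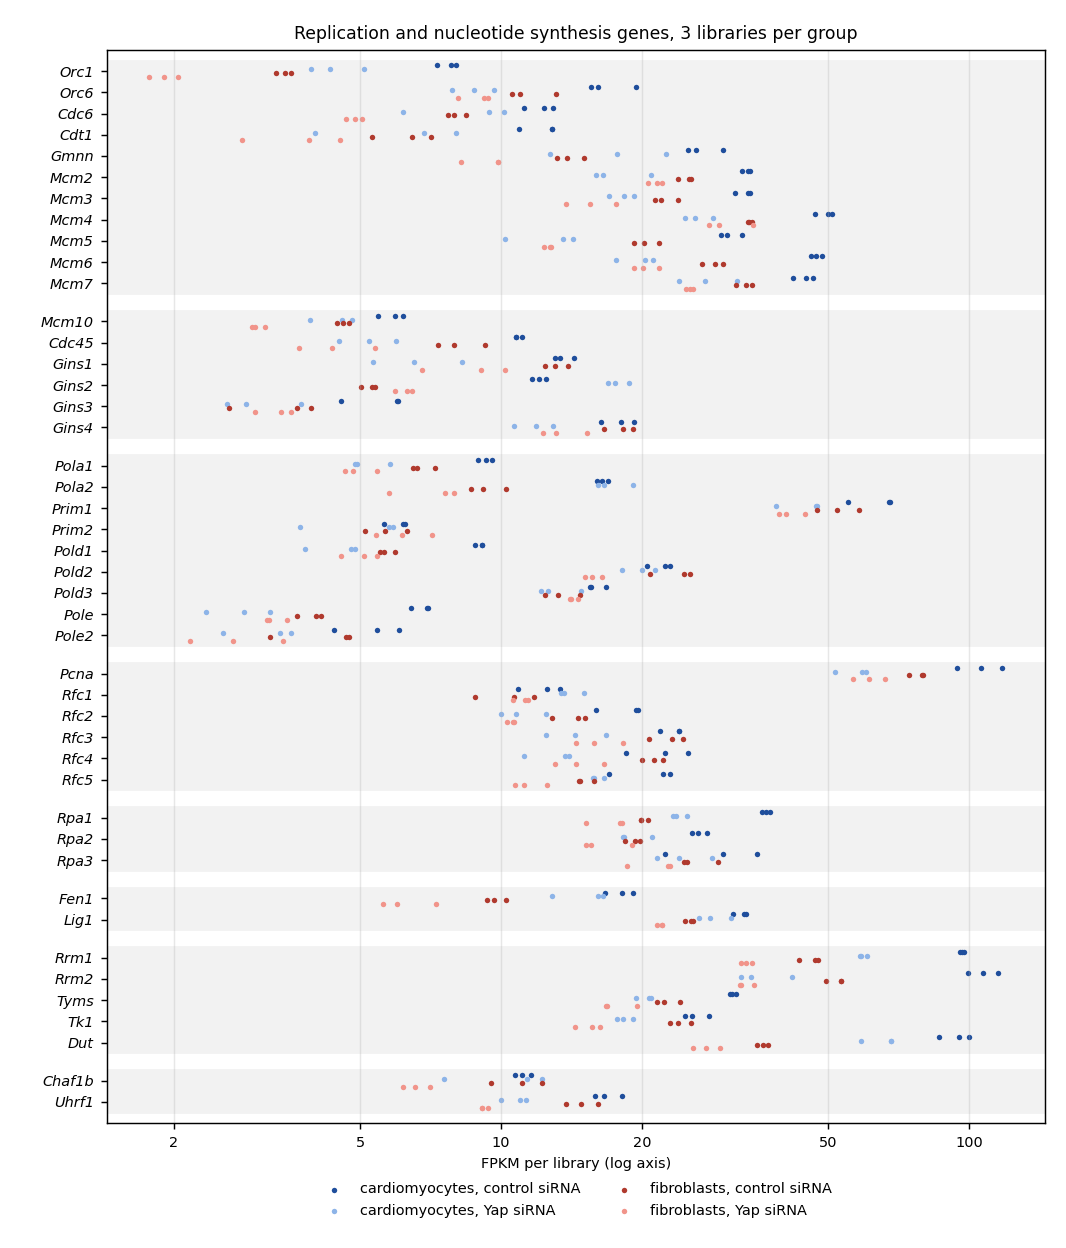
FPKM (log axis) of each of the 44 genes in each of the 12 libraries, ordered by role; each point is 1 library. Dark blue points (cardiomyocytes, control siRNA) lie to the right of light blue points (Yap siRNA) for most genes, and Gins2 is the reverse: 12.05 against 17.7 FPKM on average.

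Promoters were compared because the members moved together. RefSeq promoters (assembly GRCr8, 250 bases before to 50 after the start) were matched for 38 of 44 members. E2F letters (TTTCCCGC, TTTGGCGC, TTTCGCGC or TTTGCCGC, searched on both strands, so that matches on opposite strands can share bases) were found in 17 of the 38, or 44.7%, against 4.19% of 9171 promoters of genes tested and 2.25% of all 27457 in the table. For 19 mitosis genes the share was 5.26%, while 78.9% of these held the letters TTTGAA of the CHR element, found in 7.89% of member promoters and 11.3% of those of genes tested. CCAAT was found in 60.5% of members and 37.7% of genes tested. The TEAD letters CATTCC (the MCAT element, through which Yap's partner factors bind) were found in 5.26% of members and 11.3% of genes tested. These are counts of letters in a window, and binding was not measured.

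Below are 4 promoters, chosen after their values were seen, of genes that moved far apart: Mcm5 and Mcm6, with the largest falls among licensing genes in cardiomyocytes, and Gins1 and Gins2, subunits of 1 complex that moved in opposite directions in cardiomyocytes. Capitals mark the E2F letters. Each runs 5′ to 3′ on the gene's strand, at chr19:13488563-13488862 (plus strand) for Mcm5, chr13:42404303-42404602 (minus strand) for Mcm6, chr3:160184670-160184969 (plus strand) for Gins1 and chr19:65548003-65548302 (minus strand) for Gins2.
Mcm5: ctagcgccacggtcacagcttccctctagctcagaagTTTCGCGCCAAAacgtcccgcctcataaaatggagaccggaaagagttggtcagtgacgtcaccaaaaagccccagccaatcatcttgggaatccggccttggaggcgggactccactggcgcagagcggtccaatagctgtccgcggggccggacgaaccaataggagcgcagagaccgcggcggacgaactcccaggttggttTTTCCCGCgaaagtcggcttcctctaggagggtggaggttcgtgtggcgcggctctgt
Mcm6: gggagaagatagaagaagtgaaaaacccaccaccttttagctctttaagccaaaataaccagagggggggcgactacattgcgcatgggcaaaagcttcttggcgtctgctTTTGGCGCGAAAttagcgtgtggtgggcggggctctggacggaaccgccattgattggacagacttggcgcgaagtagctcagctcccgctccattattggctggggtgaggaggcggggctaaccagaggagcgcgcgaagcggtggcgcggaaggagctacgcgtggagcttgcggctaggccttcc
Gins1: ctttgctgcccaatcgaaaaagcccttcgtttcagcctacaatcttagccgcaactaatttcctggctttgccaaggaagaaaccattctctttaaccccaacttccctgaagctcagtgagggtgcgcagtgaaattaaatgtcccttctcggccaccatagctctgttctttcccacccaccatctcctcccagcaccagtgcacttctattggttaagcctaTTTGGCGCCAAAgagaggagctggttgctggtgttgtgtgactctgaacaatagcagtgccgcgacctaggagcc
Gins2: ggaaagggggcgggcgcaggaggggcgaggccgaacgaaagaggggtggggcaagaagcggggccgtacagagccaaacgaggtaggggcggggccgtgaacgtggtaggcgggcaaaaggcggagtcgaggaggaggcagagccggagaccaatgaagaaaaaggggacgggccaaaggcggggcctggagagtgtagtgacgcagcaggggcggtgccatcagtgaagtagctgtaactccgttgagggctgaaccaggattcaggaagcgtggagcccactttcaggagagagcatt
The window of Mcm5 held 3 matches, those of Mcm6 and Gins1 2 each, and that of Gins2 held 0. All 17 members with E2F letters were called lower in cardiomyocytes (median −0.68), as were 14 of the 21 without (median −0.51). The calls of Lig1 and Pold3 with the letters, and of Rfc5 without, were lost under at least 1 alternative run. Among those without, the largest fall was −0.94, in Cdc45. In fibroblasts the medians were −0.38 with the letters, where 12 of 17 were called lower, and −0.39 without, where 17 of 21 were. Over all genes tested, 28.7% were called lower in cardiomyocytes and 10.5% in fibroblasts. How often genes with these letters outside the members fell was not computed. The members were listed by function, so their share of E2F letters does not bear on their response. The other 6 members, Orc1, Cdc6, Mcm4, Gins4, Rpa3 and Rrm2, had no promoter in the table.

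Origin licensing genes fell throughout in cardiomyocytes, 11 of 11, with a median of −0.88, and 9 of 11 in fibroblasts, with a median of −0.50. Beside these counts, 28.7% of all genes were called lower in cardiomyocytes and 10.5% in fibroblasts. Mcm6, a helicase subunit, had 48.4, 47.01 and 46 FPKM with control siRNA and 21.1, 17.6 and 20.3 FPKM with Yap siRNA in cardiomyocytes (−1.22 ± 0.08, adjusted p = 1.79e-08). Its fibroblast values were 29.8, 28.6 and 26.9 FPKM with control siRNA and 20.1, 19.2 and 21.8 FPKM with Yap siRNA (−0.46 ± 0.08, adjusted p = 0.000332). In both cell types the groups were apart, and the 3 cardiomyocyte control libraries were the highest of the 12. Mcm5, another helicase subunit, had 32.7, 30.4 and 29.5 FPKM with control siRNA and 14.2, 10.2 and 13.6 FPKM with Yap siRNA (−1.23 ± 0.10, adjusted p = 2.08e-07). For Mcm5 in fibroblasts the values were 20.2, 21.7 and 19.2 FPKM with control siRNA and 12.3, 12.8 and 12.7 FPKM with Yap siRNA (−0.65 ± 0.10, adjusted p = 0.000175). With Yap siRNA both cell types came to about the same Mcm5 level, means of 12.7 and 12.6 FPKM.

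Mcm2 and Mcm4, also helicase subunits, fell in cardiomyocytes and did not pass in fibroblasts. Mcm4 had 50.03, 50.9 and 46.8 FPKM with control siRNA and 28.3, 24.7 and 25.9 FPKM with Yap siRNA in cardiomyocytes (−0.88 ± 0.08, adjusted p = 5.88e-07). Fibroblasts had 33.9, 33.7 and 34.4 FPKM with control siRNA and 29.2, 27.9 and 34.5 FPKM with Yap siRNA (−0.16 ± 0.08, adjusted p = 0.148), where the groups overlapped. Mcm2 had 33.8, 34.1 and 32.7 FPKM with control siRNA and 20.9, 16.5 and 15.98 FPKM with Yap siRNA in cardiomyocytes (−0.89 ± 0.09, adjusted p = 1.2e-06). Its fibroblast values, 25.2, 25.4 and 23.9 FPKM with control siRNA and 21.6, 20.6 and 22.1 FPKM with Yap siRNA, did not overlap but missed the threshold (−0.21 ± 0.09, adjusted p = 0.0834); they passed with median-of-ratios scaling, quantile normalization, only the groups compared, or without CM_yap 1 (adjusted p = 0.0282, 0.023, 0.0195 and 0.0231). Mcm4 passed there under median-of-ratios scaling (−0.21, adjusted p = 0.0441) and without CF_yap 3 (−0.25, adjusted p = 0.0299). The 6 subunits of the hexamer, which are needed in equal number, spanned 1.6 times from lowest to highest mean FPKM in control cardiomyocytes and 2.19 times with Yap siRNA, and 1.67 and 2.42 times in fibroblasts. The loaders Orc1 (−0.68 ± 0.10, adjusted p = 6.21e-05), Cdc6 (−0.48 ± 0.13, adjusted p = 0.00692) and Cdt1 (−0.90 ± 0.19, adjusted p = 0.00106) fell in cardiomyocytes, and so did Gmnn, which encodes the Cdt1 inhibitor geminin (−0.61 ± 0.15, adjusted p = 0.00287). Among the rest of the group, log2 fold changes in cardiomyocytes were −0.89 ± 0.11, adjusted p = 1.1e-05 for the origin recognition subunit Orc6, −0.83 ± 0.09, adjusted p = 2.24e-06 for Mcm3 and −0.67 ± 0.09, adjusted p = 1.6e-05 for Mcm7. Orc1, Orc6, Cdc6, Cdt1, Gmnn, Mcm3 and Mcm7 fell in fibroblasts too, with log2 fold changes of −0.34 (Orc6) to −0.63 (Cdt1). The fibroblast calls of Cdt1, Gmnn and Orc6 were lost without 1 library, CF_neg 1, CF_neg 2 or CF_yap 1 for Cdt1 (adjusted p = 0.0762, 0.0554 and 0.0966), CF_yap 3 for Gmnn (0.0514), and CF_neg 3 or CF_yap 1 for Orc6 (0.13 and 0.116).

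**Figure D3:**
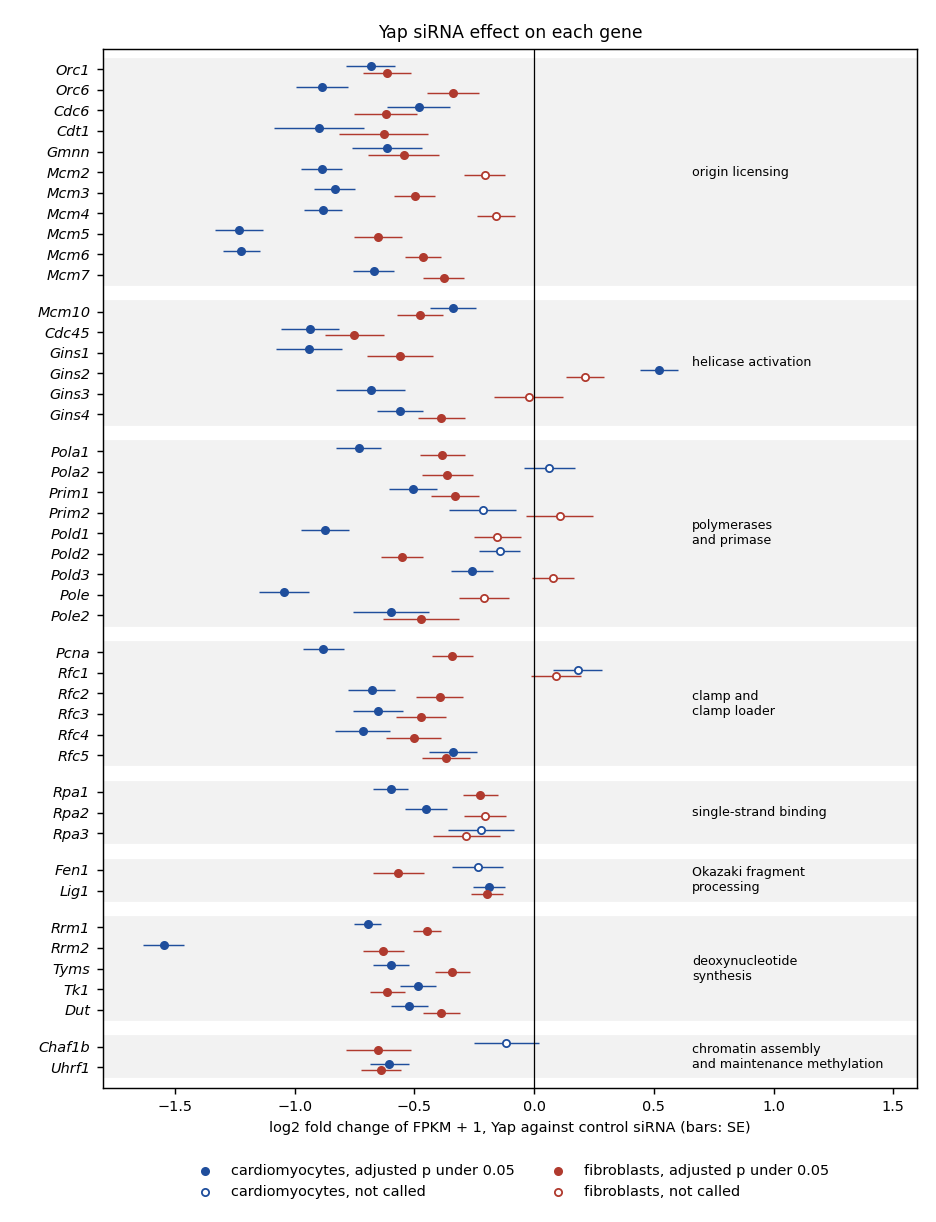
Log2 fold change of FPKM + 1 (Yap against control siRNA, whiskers: SE) of each gene in cardiomyocytes (blue) and fibroblasts (red), grouped by role; filled points passed an adjusted p under 0.05. Rrm2 has the largest fall in cardiomyocytes (−1.55), and Gins2 is the one filled point to the right of 0 (0.52).

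Helicase activation genes split over a single complex. Of 6, 5 fell and Gins2 rose in cardiomyocytes (all genes: 28.7% lower, 21% higher), and 4 fell in fibroblasts (all genes: 10.5% lower). Cdc45, which joins the MCM ring, had 11.1, 10.8 and 10.8 FPKM with control siRNA and 5.22, 4.51 and 5.97 FPKM with Yap siRNA in cardiomyocytes (−0.94 ± 0.12, adjusted p = 2e-05). Fibroblasts had 7.91, 7.34 and 9.23 FPKM with control siRNA and 4.35, 3.69 and 5.37 FPKM with Yap siRNA (−0.75 ± 0.12, adjusted p = 0.000292). The groups were apart in both. Gins1 had 13.4, 13.02 and 14.3 FPKM with control siRNA and 8.25, 6.5 and 5.31 FPKM with Yap siRNA in cardiomyocytes (−0.94 ± 0.14, adjusted p = 5.83e-05). Fibroblasts had 13.9, 12.4 and 13.1 FPKM with control siRNA and 6.79, 10.2 and 9.05 FPKM with Yap siRNA (−0.56 ± 0.14, adjusted p = 0.00647). All of its Yap siRNA libraries were below all controls of their cell type. Gins2 went the other way, with 12.1, 11.6 and 12.5 FPKM with control siRNA and 17.5, 18.8 and 16.9 FPKM with Yap siRNA (0.52 ± 0.08, adjusted p = 7.26e-05). Fibroblasts had 5.01, 5.38 and 5.3 FPKM with control siRNA and 5.93, 6.46 and 6.28 FPKM with Yap siRNA (0.21 ± 0.08, adjusted p = 0.0518). These groups were apart but the p missed the threshold. Gins2 passed with a pseudocount of 0.1 (0.25, adjusted p = 0.0419), with no filter (adjusted p = 0.046), with a filter of 5 FPKM (adjusted p = 0.0497), with no variance trend (adjusted p = 0.0315) and without CM_yap 2 (adjusted p = 0.0405). The ratio of Gins2 to Gins1 was 0.888 ± 0.016 (SD, n = 3) in control cardiomyocytes and 2.73 ± 0.55 with Yap siRNA, and 0.40 ± 0.037 and 0.734 ± 0.12 in fibroblasts. Gins2 overlaps Gse1 on the opposite strand in the RefSeq gene models, Gse1 was not analysed here, and the sources used here do not say whether counting used strand, so their reads may not be told apart. Gins3 fell in cardiomyocytes (−0.68 ± 0.14, adjusted p = 0.00113) and Gins4 in both cell types (−0.56 ± 0.10, adjusted p = 0.000252 and −0.39 ± 0.10, adjusted p = 0.0072), while Gins3 had a fibroblast value of −0.02 ± 0.14, adjusted p = 0.927. Mcm10, which helps the helicase start, also fell in both (−0.34 ± 0.10, adjusted p = 0.00839 and −0.48 ± 0.10, adjusted p = 0.00151).

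**Figure D4:**
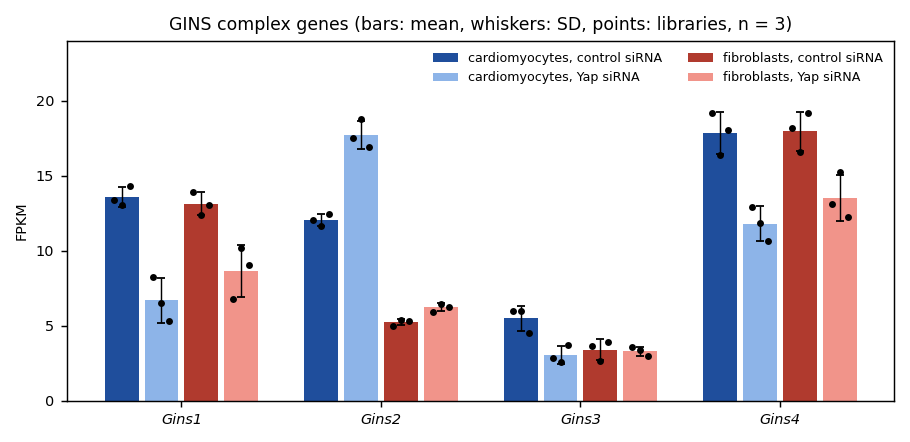
Mean FPKM of the 4 GINS genes in the 4 groups (bars, from 0), with SD (whiskers) and the 3 libraries of each (points). Gins2 is higher with Yap siRNA than with control siRNA in cardiomyocytes, 17.7 against 12.05 FPKM, while Gins1, Gins3 and Gins4 are lower.

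Polymerase and primase genes were mixed, with 6 of 9 lower in cardiomyocytes and 5 of 9 in fibroblasts, against 28.7% and 10.5% of all genes. Pole, the catalytic subunit of polymerase epsilon, had 6.42, 6.93 and 6.98 FPKM with control siRNA and 2.82, 2.34 and 3.2 FPKM with Yap siRNA in cardiomyocytes (−1.04 ± 0.10, adjusted p = 1.52e-06). Fibroblasts had 4.13, 4.03 and 3.66 FPKM with control siRNA and 3.19, 3.16 and 3.48 FPKM with Yap siRNA (−0.21 ± 0.10, adjusted p = 0.145). Pold1, the catalytic subunit of polymerase delta, had 9.1, 9.12 and 8.8 FPKM with control siRNA and 4.78, 3.8 and 4.88 FPKM with Yap siRNA (−0.87 ± 0.10, adjusted p = 5.6e-06). Fibroblasts had 5.92, 5.62 and 5.52 FPKM with control siRNA and 5.1, 4.54 and 5.43 FPKM with Yap siRNA (−0.15 ± 0.10, adjusted p = 0.268). Cardiomyocyte groups were apart for both genes, and fibroblast groups were apart for Pole and Pold1 without passing the test, except under quantile normalization (−0.36, adjusted p = 0.00925 for Pole and −0.29, adjusted p = 0.0245 for Pold1). Pold2, an accessory subunit of polymerase delta, did the opposite. It had 22.4, 22.96 and 20.5 FPKM with control siRNA and 21.3, 18.1 and 20 FPKM with Yap siRNA in cardiomyocytes (−0.14 ± 0.09, adjusted p = 0.18), where the groups overlapped. Fibroblasts had 24.6, 25.3 and 20.8 FPKM with control siRNA and 15.1, 15.7 and 16.4 FPKM with Yap siRNA (−0.55 ± 0.09, adjusted p = 0.000207), where they were apart. Pola1, the catalytic subunit of polymerase alpha, fell in both (−0.73 ± 0.09, adjusted p = 1.64e-05 and −0.38 ± 0.09, adjusted p = 0.00598), as did Prim1, the primase catalytic subunit (−0.51 ± 0.10, adjusted p = 0.000761 and −0.33 ± 0.10, adjusted p = 0.0214). The fibroblast call of Prim1 was lost without CF_neg 2, CF_neg 3, CF_yap 1 or CF_yap 2 (adjusted p = 0.0535, 0.103, 0.0674 and 0.0763). Pola2, the accessory subunit of polymerase alpha, and Prim2 did not pass in cardiomyocytes (0.06 ± 0.11, adjusted p = 0.649 and −0.21 ± 0.14, adjusted p = 0.215). In fibroblasts Pola2 fell (−0.36 ± 0.11, adjusted p = 0.0184), but not without CF_neg 1 or CF_yap 3 (adjusted p = 0.0844 and 0.0968). Pole2 fell in both (−0.60 ± 0.16, adjusted p = 0.00563 and −0.47 ± 0.16, adjusted p = 0.0343), its fibroblast call being lost without CF_neg 1, CF_neg 3, CF_yap 1 or CF_yap 3 (adjusted p = 0.128, 0.122, 0.152 and 0.0817) and with no filter (0.0638). In cardiomyocytes Pold3, a further polymerase delta subunit, fell (−0.26 ± 0.09, adjusted p = 0.0228) but not without CM_neg 2, CM_yap 2 or CM_yap 3 (adjusted p = 0.085, 0.0634 and 0.0839) or with median-of-ratios scaling, quantile normalization or only the groups compared (0.0936, 0.0683 and 0.0626).

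The clamp and its loader fell in 5 of 6 cases in each cell type, against 28.7% of all genes in cardiomyocytes and 10.5% in fibroblasts. Pcna, the clamp itself, had 118, 106 and 94.05 FPKM with control siRNA and 60.1, 51.7 and 58.96 FPKM with Yap siRNA in cardiomyocytes (−0.88 ± 0.09, adjusted p = 1.21e-06). Fibroblasts had 74.4, 79.2 and 79.8 FPKM with control siRNA and 56.5, 61.2 and 66.1 FPKM with Yap siRNA (−0.34 ± 0.09, adjusted p = 0.00688). Rfc2, a loader subunit, had 19.6, 19.4 and 15.97 FPKM with control siRNA and 10.8, 9.99 and 12.5 FPKM with Yap siRNA in cardiomyocytes (−0.68 ± 0.10, adjusted p = 5.1e-05). Fibroblasts had 12.9, 14.6 and 15.1 FPKM with control siRNA and 10.3, 10.6 and 10.7 FPKM with Yap siRNA (−0.39 ± 0.10, adjusted p = 0.00681). The groups of both genes were apart in both cell types. Rfc3 had 24, 21.8 and 23.96 FPKM with control siRNA and 14.4, 16.8 and 12.5 FPKM with Yap siRNA (−0.65 ± 0.11, adjusted p = 0.000137). Fibroblasts had 23.2, 24.4 and 20.7 FPKM with control siRNA and 14.5, 15.8 and 18.2 FPKM with Yap siRNA (−0.47 ± 0.11, adjusted p = 0.00337). Rfc1, the largest loader subunit, was the exception, with 12.3 and 14.0 FPKM in cardiomyocytes (0.18 ± 0.10, adjusted p = 0.156) and 10.4 and 11.1 FPKM in fibroblasts (0.09 ± 0.10, adjusted p = 0.543). Its groups were apart in cardiomyocytes, which makes it, beside Gins2, the second of the 2 members higher in every Yap siRNA library there. Rfc4 fell in both (−0.72 ± 0.12, adjusted p = 0.000126 and −0.50 ± 0.12, adjusted p = 0.00396), and Rfc5 fell in cardiomyocytes (−0.34 ± 0.10, adjusted p = 0.0108) but not without CM_neg 1 or CM_neg 2 (adjusted p = 0.0511 and 0.0613). Rfc5 also fell in fibroblasts (−0.37 ± 0.10, adjusted p = 0.011), but not without CF_yap 3 (adjusted p = 0.0502). Of the RPA genes, which coat single-stranded DNA, Rpa1 had 37.5, 36.8 and 36.02 FPKM with control siRNA and 23.7, 24.9 and 23.2 FPKM with Yap siRNA in cardiomyocytes (−0.60 ± 0.07, adjusted p = 1.05e-05). Fibroblasts had 19.9, 20.6 and 19.9 FPKM with control siRNA and 17.97, 15.2 and 18.2 FPKM with Yap siRNA (−0.23 ± 0.07, adjusted p = 0.0287). The groups were apart in both, and the fibroblast call was lost without CF_neg 1, CF_neg 2, CF_neg 3 or CF_yap 2 (adjusted p = 0.0627, 0.0927, 0.0572 and 0.141). Rpa2 had 27.6, 25.6 and 26.3 FPKM with control siRNA and 18.2, 20.97 and 18.3 FPKM with Yap siRNA in cardiomyocytes (−0.45 ± 0.09, adjusted p = 0.000629). Fibroblasts had 19.4, 18.4 and 19.8 FPKM with control siRNA and 19.01, 15.5 and 15.2 FPKM with Yap siRNA (−0.20 ± 0.09, adjusted p = 0.0906), where the groups overlapped. Rpa2 passed there with median-of-ratios scaling, quantile normalization or without CF_yap 1 (adjusted p = 0.0428, 0.0299 and 0.0194). Rpa3 did not pass in cardiomyocytes (−0.22 ± 0.14, adjusted p = 0.201) or fibroblasts (−0.28 ± 0.14, adjusted p = 0.138). It passed in cardiomyocytes without CM_neg 3 (−0.39, adjusted p = 0.0185) and in fibroblasts with only the groups compared (adjusted p = 0.0459).

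Okazaki fragment genes differed in size of change. Fen1, which trims flaps, had 19.2, 16.6 and 18.1 FPKM with control siRNA and 16.5, 16.1 and 12.9 FPKM with Yap siRNA in cardiomyocytes (−0.24 ± 0.11, adjusted p = 0.0798). Fibroblasts had 10.2, 9.67 and 9.31 FPKM with control siRNA and 5.59, 5.99 and 7.24 FPKM with Yap siRNA (−0.57 ± 0.11, adjusted p = 0.000964). The groups were apart in both, but Fen1 missed the threshold in cardiomyocytes, with an adjusted p of 0.0499 without CM_yap 1. Lig1, which seals nicks, fell least among the called members, with 31.2, 33 and 33.3 FPKM with control siRNA and 27.9, 31.02 and 26.5 FPKM with Yap siRNA in cardiomyocytes (−0.19 ± 0.07, adjusted p = 0.0314). Fibroblasts had 25.4, 24.7 and 25.7 FPKM with control siRNA and 21.6, 22.1 and 22.1 FPKM with Yap siRNA (−0.20 ± 0.07, adjusted p = 0.0373). Its call was lost in cardiomyocytes without CM_neg 2 (adjusted p = 0.0843), CM_neg 3 (0.0801), CM_yap 1 (0.0788) or CM_yap 3 (0.116) and with either scaling (0.23 and 0.0925). Fitting only the groups compared lost it as well (0.0953). In fibroblasts the Lig1 call was lost whichever of the 6 fibroblast libraries was left out (adjusted p between 0.0645 and 0.11) and with no variance trend (0.0518).

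All 5 deoxynucleotide synthesis genes fell in both cell types, where 28.7% of all genes fell in cardiomyocytes and 10.5% in fibroblasts. Rrm2 had 115, 107 and 99.5 FPKM with control siRNA and 41.9, 32.5 and 34.2 FPKM with Yap siRNA in cardiomyocytes (−1.55 ± 0.09, adjusted p = 5.55e-09), and 33.8% of the mean remained. Fibroblasts had 53.1, 49.4 and 53.3 FPKM with control siRNA and 32.5, 32.5 and 34.7 FPKM with Yap siRNA (−0.63 ± 0.09, adjusted p = 5.91e-05). Rrm1, the other subunit, had 96.7, 95.7 and 97.4 FPKM with control siRNA and 60.5, 58.6 and 58.8 FPKM with Yap siRNA (−0.69 ± 0.06, adjusted p = 2.19e-07). Fibroblasts had 47.6, 43.3 and 46.8 FPKM with control siRNA and 34.3, 32.6 and 33.3 FPKM with Yap siRNA (−0.45 ± 0.06, adjusted p = 3.09e-05). The groups were apart for both genes in both cell types, and control cardiomyocytes were the highest. The ratio of Rrm2 to Rrm1 was 1.11 ± 0.085 (SD, n = 3) in control cardiomyocytes and 0.609 ± 0.072 with Yap siRNA, against 1.13 ± 0.014 and 0.995 ± 0.048 in fibroblasts. In the RefSeq gene models Rrm2 overlaps Cys1, and the strand of Rrm2 was not listed. Cys1 stood between 0.33 and 2.02 FPKM over the 12 libraries. Tk1, which salvages thymidine, had 27.9, 25.6 and 24.6 FPKM with control siRNA and 19.1, 17.6 and 18.2 FPKM with Yap siRNA in cardiomyocytes (−0.48 ± 0.07, adjusted p = 8.64e-05). Fibroblasts had 25.4, 22.98 and 23.9 FPKM with control siRNA and 16.2, 14.4 and 15.7 FPKM with Yap siRNA (−0.61 ± 0.07, adjusted p = 2.09e-05). Tyms, thymidylate synthase, fell (−0.60 ± 0.07, adjusted p = 1.27e-05 and −0.34 ± 0.07, adjusted p = 0.00282), and so did Dut, which removes dUTP (−0.52 ± 0.08, adjusted p = 5.79e-05 and −0.39 ± 0.08, adjusted p = 0.00145). Uhrf1, which recruits the maintenance methyltransferase to new DNA, fell in both cell types, with 16.6, 18.1 and 15.9 FPKM with control siRNA and 10.96, 10 and 11.3 FPKM with Yap siRNA in cardiomyocytes (−0.60 ± 0.08, adjusted p = 2.96e-05). Fibroblasts had 16.1, 14.8 and 13.8 FPKM with control siRNA and 9.37, 9.1 and 9.11 FPKM with Yap siRNA (−0.64 ± 0.08, adjusted p = 3.7e-05). Its effects in the cell types differed by 0.04 ± 0.12, adjusted p = 0.835. Chaf1b, a subunit of the chromatin assembly factor, had 11.6, 11.1 and 10.7 FPKM with control siRNA and 11.4, 12.2 and 7.56 FPKM with Yap siRNA in cardiomyocytes (−0.12 ± 0.14, adjusted p = 0.505). Fibroblasts had 12.2, 9.51 and 11.1 FPKM with control siRNA and 6.17, 7.03 and 6.55 FPKM with Yap siRNA (−0.65 ± 0.14, adjusted p = 0.00219).

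Under control siRNA the members were higher in cardiomyocytes. Of 44, 32 were called higher and 0 lower in limma, where 42% of all genes were higher, 26.4% lower and 68.4% in either direction. Without adjustment, 33 were higher and 0 lower at p under 0.05, where the shares of all genes were not computed. The median was 0.43, against 0.13 over all genes. The all-gene median moved by −0.12 with median-of-ratios scaling and by −0.19 with quantile normalization. The members' median less that of all genes was 0.30 as deposited, 0.29 and 0.32. With either scaling Pold2 was called lower (−0.22 and −0.26). The largest difference was in Dut, 99.8, 95.3 and 86.1 FPKM in cardiomyocytes against 36.3, 35.2 and 37.1 FPKM in fibroblasts (1.35 ± 0.08, adjusted p = 2.95e-10), followed by Gins2, 12.1, 11.6 and 12.5 FPKM in cardiomyocytes against 5.01, 5.38 and 5.3 FPKM in fibroblasts (1.07 ± 0.08, adjusted p = 7.12e-09), and Rrm1, 96.7, 95.7 and 97.4 FPKM in cardiomyocytes against 47.6, 43.3 and 46.8 FPKM in fibroblasts (1.06 ± 0.06, adjusted p = 1.3e-10). For all 3 genes the cell types were apart. Gins1, Gins4, Rfc3, Rfc4 and Chaf1b had differences between −0.01 and 0.05 and did not pass. Endothelial markers were all called higher in the cardiomyocyte cultures, 10 of 10, with Pecam1 at 88.5 against 1.09 FPKM and Cdh5 at 92.7 against 1.43 FPKM, and none was at 0 in all 3 libraries of a group; their part in the result was not tested.

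The effect of Yap siRNA differed between cell types for 18 of 44 members, with 14 lower and 4 higher in cardiomyocytes than in fibroblasts. Over all genes 23.7% were lower, 11.7% higher and 35.3% in either direction, so the members' share was close to that of all genes. Their median difference was −0.23, against −0.13 over all genes; the scalings moved the all-gene median by 0.12 and 0.14, and the members' median less that of all genes was −0.10 as deposited, −0.09 with either scaling. The 5 members with the smallest p were Rrm2 (−0.92 ± 0.12, adjusted p = 5.58e-05), Pole (−0.84 ± 0.15, adjusted p = 0.000585), Mcm6 (−0.76 ± 0.11, adjusted p = 0.000105), Mcm4 (−0.72 ± 0.11, adjusted p = 0.000219) and Mcm2 (−0.68 ± 0.12, adjusted p = 0.000669). Rrm2 differed most in size, and Pold1 (−0.72) differed by more than Mcm2. In each of these genes the fall was larger in cardiomyocytes. The opposite was found for Chaf1b (0.53 ± 0.19, adjusted p = 0.0436), Pola2 (0.43 ± 0.15, adjusted p = 0.0406) and Pold2 (0.41 ± 0.12, adjusted p = 0.018), and Gins2 rose more in cardiomyocytes (0.31 ± 0.11, adjusted p = 0.0432). Of these 4 genes 1 was still called without CM_neg 1, CM_neg 2, CM_yap 1, CF_neg 1, CF_neg 2 or CF_yap 3 and 2 without CM_neg 3, CM_yap 2, CF_neg 3 or CF_yap 1. As deposited 14 members were lower, and quantile normalization left 8 lower and 6 higher. Of all genes tested, 15.2% were lower and 15.9% higher under quantile normalization. Across the 44 genes the effects in the cell types had a Pearson correlation of 0.44, given as a description, since genes are not independent replicates.

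**Figure D5:**
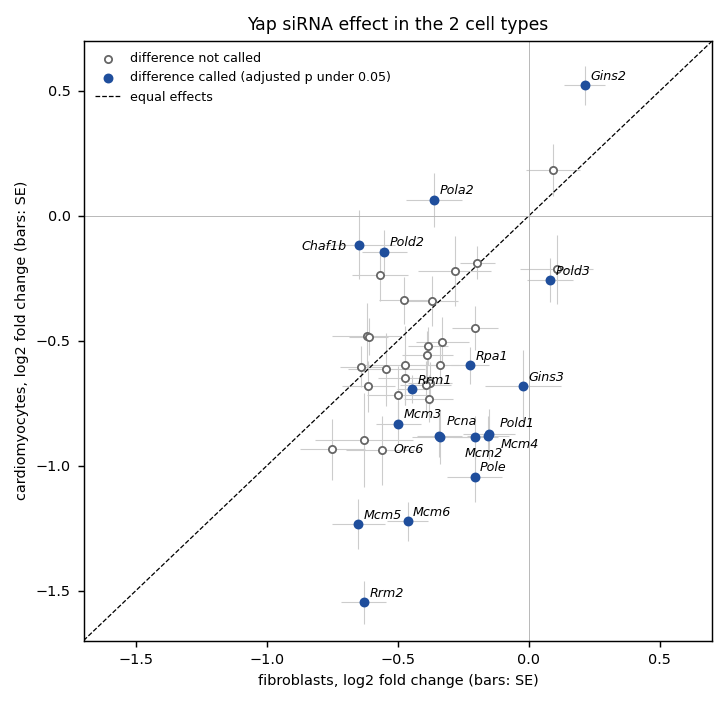
Log2 fold change (Yap against control siRNA, bars: SE) of each gene in cardiomyocytes (y axis) against fibroblasts (x axis); the dashed line marks equal effects and filled points are the 18 genes whose effects differed at an adjusted p under 0.05. Rrm2, Pole, Mcm4 and Pold1 lie well below the line, and Pola2, Chaf1b, Pold2 and Gins2 above it.

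Related genes outside the members also fell more often than they rose. So did all genes in cardiomyocytes (28.7% lower, 21% higher), but not in fibroblasts (10.5% lower, 20.4% higher). Of 33 other replication genes 22 fell and 3 rose in cardiomyocytes (median −0.43), and 13 fell and 1 rose in fibroblasts (median −0.20). Cdc7, the kinase that fires origins, went from 7.31 ± 0.21 to 3.12 ± 0.35 FPKM in cardiomyocytes (−1.01 ± 0.09, adjusted p = 7.71e-07), and Asf1b, a histone chaperone, from 13.7 ± 0.93 to 7.09 ± 0.53 FPKM (−0.86 ± 0.10, adjusted p = 5.08e-06). Both fell in fibroblasts as well (−0.37 ± 0.09, adjusted p = 0.00794 and −0.50 ± 0.10, adjusted p = 0.00129). Dbf4, the activating subunit of the Cdc7 kinase, fell in both cell types (−0.79 ± 0.12, adjusted p = 7.44e-05 and −0.55 ± 0.12, adjusted p = 0.00276). The genes that rose in cardiomyocytes were Rnaseh2a, a subunit of the enzyme that removes ribonucleotides from DNA (0.48 ± 0.08, adjusted p = 0.000198), and the topoisomerase genes Top1 (0.21 ± 0.07, adjusted p = 0.0178) and Top2b (0.21 ± 0.08, adjusted p = 0.0404); Top1 also rose in fibroblasts (0.30 ± 0.07, adjusted p = 0.00424). Mcmbp, which binds MCM subunits, fell in cardiomyocytes (−0.54 ± 0.07, adjusted p = 2.62e-05), and Chtf18, of an alternative clamp loader, in both (−0.51 ± 0.10, adjusted p = 0.000657 and −0.53 ± 0.10, adjusted p = 0.00104). Of 31 other nucleotide synthesis genes 21 fell and 2 rose in cardiomyocytes (median −0.31), and 16 fell and 2 rose in fibroblasts (median −0.24). Mthfd2, a mitochondrial folate enzyme, fell in both (−1.09 ± 0.08, adjusted p = 5.35e-08 and −0.79 ± 0.08, adjusted p = 1.75e-06), as did Ctps1, which makes CTP (−0.78 ± 0.06, adjusted p = 2.1e-07 and −0.49 ± 0.06, adjusted p = 4.11e-05). Its paralog Ctps2 rose in fibroblasts, from 18.9 ± 1.06 to 30.1 ± 1.17 FPKM (0.64 ± 0.08, adjusted p = 2.17e-05), and stood at 0.02 ± 0.08, adjusted p = 0.831 in cardiomyocytes. Mthfd1, the cytosolic folate enzyme (−0.55 ± 0.07, adjusted p = 1.48e-05 and −0.58 ± 0.07, adjusted p = 1.99e-05), and Umps, the last enzyme of UMP synthesis (−0.82 ± 0.09, adjusted p = 3.9e-06 and −0.44 ± 0.09, adjusted p = 0.00176), likewise fell in both. Dguok, a mitochondrial deoxynucleoside kinase, rose in both cell types (0.31 ± 0.09, adjusted p = 0.0142 and 0.33 ± 0.09, adjusted p = 0.015), and Slc29a1, a nucleoside transporter, rose in cardiomyocytes (0.34 ± 0.13, adjusted p = 0.0334).

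Regulators of these genes and genes of mitosis likewise fell more often than they rose. The shares over all genes were 28.7% lower and 21% higher in cardiomyocytes, and 10.5% and 20.4% in fibroblasts. Of 21 E2F and RB regulators 13 fell and 1 rose in cardiomyocytes (median −0.45), and 9 fell and 1 rose in fibroblasts (median −0.25). E2f1, an activating E2F factor, went from 10.99 ± 0.10 to 4.21 ± 0.32 FPKM in cardiomyocytes (−1.20 ± 0.09, adjusted p = 1.07e-07) and from 7.95 ± 0.70 to 5.57 ± 0.37 FPKM in fibroblasts (−0.44 ± 0.09, adjusted p = 0.0018), and these effects differed (−0.76 ± 0.13, adjusted p = 0.000452). The gene that rose in both was Rbl2, an RB family repressor (0.26 ± 0.09, adjusted p = 0.0291 and 0.47 ± 0.09, adjusted p = 0.00127). Chek1, the replication checkpoint kinase (−0.79 ± 0.08, adjusted p = 3.29e-06 and −0.43 ± 0.08, adjusted p = 0.00135), fell in both, as did Ccna2, the S phase cyclin A (−0.72 ± 0.08, adjusted p = 5.02e-06 and −0.62 ± 0.08, adjusted p = 4.32e-05), and Mybl2, a cell cycle transcription factor (−0.56 ± 0.11, adjusted p = 0.000472 and −0.72 ± 0.11, adjusted p = 0.000116). Of 22 mitosis genes 21 fell in cardiomyocytes (median −0.58) and 20 in fibroblasts (median −0.43), and none rose in limma in either. Cdk1, the mitotic kinase, went from 72.4 ± 3.47 to 33.1 ± 1.6 FPKM in cardiomyocytes and from 78.9 ± 3.55 to 46.2 ± 0.48 FPKM in fibroblasts. Prc1, which bundles spindle microtubules (−0.85 ± 0.06, adjusted p = 1.14e-07 and −0.56 ± 0.06, adjusted p = 1.26e-05), the spindle motor gene Kif11 (−0.96 ± 0.10, adjusted p = 2.64e-06 and −0.41 ± 0.10, adjusted p = 0.00582) and the mitotic kinase gene Plk1 (−0.53 ± 0.08, adjusted p = 9.03e-05 and −0.60 ± 0.08, adjusted p = 6.04e-05) fell in both. The summed FPKM of mitosis genes fell to 62.4% of control in cardiomyocytes and 70.9% in fibroblasts, and that of the members to 62.6% and 75.7%. Under control siRNA the mitosis genes had a median difference between cell types of 0.12, against 0.13 over all genes. Of the 22, 5 were higher and 1 lower in cardiomyocytes, where 42% of all genes were higher and 26.4% lower.

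Summed markers of other cells did not all move the way the members did. The counts below stand beside 28.7% of all genes called lower and 21% higher in cardiomyocytes, and 10.5% and 20.4% in fibroblasts. In cardiomyocyte cultures 5 of 10 endothelial markers fell and 1 rose, and their summed FPKM lay between 566 and 670 with control siRNA and between 407 and 478 with Yap siRNA. Eng made up most of the change in this sum, with means of 278.5 and 162.6 FPKM. Pecam1 had means of 88.5 and 59.3 FPKM, Cdh5 of 92.7 and 71.9 FPKM, and Kdr, a vascular growth factor receptor, of 9.87 and 12.7 FPKM. None of the 10 was at 0 in all 3 libraries. Erythroid markers summed to 57.9 to 73.1 FPKM and 31.9 to 56.2 FPKM, and 1 of 3 tested fell. Cardiomyocyte markers summed to 34132 to 37089 FPKM with Yap siRNA, above the controls, with 6 of 9 higher and 3 lower. Fibroblast markers summed to 346 to 502 and 392 to 485 FPKM, with 4 of 10 higher and 0 lower. Leukocyte markers summed to 168 to 210 and 162 to 221 FPKM, with 4 of 9 tested lower and 2 higher (median −0.27), and smooth muscle and pericyte markers to 84.8 to 91.0 and 94.5 to 107 FPKM, with 2 of 8 lower and 6 higher. In fibroblast cultures the endothelial sum lay between 183 and 209 FPKM with control and between 227 and 246 FPKM with Yap siRNA, above the controls, with 4 of 10 higher and 1 lower. Most of that rise was in Eng, with means of 174.2 and 208.8 FPKM. The summed smooth muscle and pericyte markers were lower there with Yap siRNA in every library, as were the members, going from 334 to 366 FPKM to 244 to 255 FPKM (71.5% of control), with 3 of 8 lower and 3 higher. Cardiomyocyte markers went from 904 to 952 FPKM to 731 to 819 FPKM (83.2%), with 4 of 9 lower and 3 higher. Fibroblast markers summed to 16740 to 17713 and 17554 to 17761 FPKM, with 4 of 10 higher and 0 lower, leukocyte markers to 272 to 297 and 274 to 315 FPKM, with 1 of 9 higher and 0 lower, and erythroid markers to at most 1.34 FPKM in any fibroblast library. Cd52 was at 0 in all 3 libraries of both fibroblast groups, and Alas2 and Hba-a1 in those with Yap siRNA. The part of these cells in the fall of the members was not tested.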

How the data were processed

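The authors deposited 1 table with a column of FPKM per library, and these FPKM values were used as deposited, per the file headers. HISAT, Bowtie2 and the rn6 genome are named in the submitters' processing notes. Neither their versions nor the quantification tool, annotation or use of strand is given in the sources used here. The table holds no counts. Low FPKM values lay within 0.1 of a whole multiple of a gene's lowest value in 19% of 54745 cases over 10651 genes, against 20% without steps, so sequencing depth is unknown and counting error is not given.

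From the table, log2(FPKM + 1), which understates the change of low genes, was computed for 11302 genes averaging 0.5 FPKM or more. All 12 libraries were fitted together in limma 3.58.1 under R 4.3.3 (lmFit, eBayes with a variance trend), with two-sided tests and Benjamini-Hochberg adjustment over all genes. The fit was tested on simulated data. With 3 libraries against 3 there are 10 exact splits, and the smallest permutation p is 0.1. The 4 comparisons were the Yap siRNA effect within cardiomyocytes (CM), that within fibroblasts (CF), the CM effect less the CF effect, and CM against CF libraries with control siRNA. Groups came from the titles (CM_neg, CM_yap, CF_neg and CF_yap). Gene IDs matched the reference in 14516 genes (99.2%), and 14 members overlap another RefSeq gene model. Besides Gins2 and Rrm2, these include Pole2, which overlaps Klhdc1 over 38070 bases (strand not listed). They also include Uhrf1, which overlaps Arrdc5 over 1027 bases on the opposite strand. Reads of these pairs may not be told apart either. Promoters were read from RefSeq with Python 3.11.15 and pandas 2.3.3, and matplotlib 3.10.9 drew the plots.

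Members and lists were chosen with earlier results of these data known. The rule for genes named was the 2 smallest p per role in cardiomyocytes and 1 in fibroblasts, the 5 smallest for the difference, the 3 most different between cell types, members moving against the rest, and up to 3 per direction of each related list. Other members are given in addition. Alternatives were quantile normalization or median-of-ratios scaling, pseudocounts of 0.1 and 5, a filter of 5 FPKM or none, a fit with no trend, a replicate block, only the groups compared, and omission of each library.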

Additional observations from a re-analysis of the deposited data

Results flagged for a closer look

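The effect of Yap siRNA differed between cardiomyocytes and fibroblasts, by the test of the difference itself in limma, for 18 members, against 35.3% of all genes. Values are log2 differences, cardiomyocytes minus fibroblasts. Those called under every alternative run were Rrm2 (−0.92), Pole (−0.84), Mcm6 (−0.76), Mcm4 (−0.72), Pold1 (−0.72), Mcm2 (−0.68), Mcm5 (−0.58) and Pcna (−0.54). Those not called under at least 1 alternative were Gins3 (−0.66), Orc6 (−0.55), Rpa1 (−0.37), Pold3 (−0.34), Mcm3 (−0.33), Rrm1 (−0.25), Gins2 (0.31), Pold2 (0.41), Pola2 (0.43) and Chaf1b (0.53). In groups of 3 libraries no single library was tested as standing apart.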

How the results depend on the processing

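No member changed direction while called under any alternative run. Of the calls, 34 of 37 held under every alternative for Yap siRNA in cardiomyocytes (not Lig1, Pold3 and Rfc5), 24 of 33 in fibroblasts (not Cdt1, Gmnn, Lig1, Orc6, Pola2, Pole2, Prim1, Rfc5 and Rpa1), 8 of 18 for the difference between effects and 25 of 32 for the cell types under control siRNA. Leaving out 1 library at a time gave 33 to 36 lower in cardiomyocytes, 28 to 34 lower and 0 to 1 higher in fibroblasts, 10 to 16 lower and 1 to 5 higher for the difference, and 29 to 33 higher for the cell types. In fibroblasts 1 member, Gins2, was higher with a pseudocount of 0.1, no filter, a filter of 5 FPKM (39 members tested) or no variance trend. For the difference 2 were higher with no filter, where 9.14% of all genes were. Quantile normalization left 8 lower, against 15.2% of all genes. Median-of-ratios scaling gave 10 lower and 5 higher, against 15.5% and 16.6% of all genes. For the cell types, 1 member, Pold2, was lower under median-of-ratios scaling and quantile normalization. The cause was not tested. Same-numbered libraries had correlations of their deviations of 0.144, 0.037 and 0.086 in cardiomyocytes and −0.0016, −0.086 and −0.123 in fibroblasts. Each cardiomyocyte control library correlated best with its own number, but CM_yap 2 correlated best with CM_neg 3 (0.061). No fibroblast control library correlated best with its own number. The numbers were therefore not taken as pairs in either cell type, and a replicate block was run as an alternative. With the replicate block 37 fell and 1 rose in cardiomyocytes, 32 fell and 0 rose in fibroblasts, 12 were lower and 3 higher for the difference, and 31 were higher and 0 lower for the cell types. In that fit Rpa3 passed in cardiomyocytes, in fibroblasts and between cell types (adjusted p = 0.0425, 0.0227 and 0.00295). The calls lost with it were Pole2 and Lig1 in fibroblasts (0.0659 and 0.0559), Mcm3, Gins2 and Pold3 for the difference (0.0641, 0.0776 and 0.0622), and Mcm10 and Gins3 for the cell types (0.0622 and 0.0779). The fit of only the groups compared has no meaning for the difference, which needs all 4 groups, and was not run. Without read counts, how far depth limits low genes cannot be given.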
